A study of Mus musculus with 371 samples.

Results

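IL-27 is a cytokine of the IL-12 family that is made of a p28 subunit, encoded by Il27, and the subunit encoded by Ebi3. It binds a receptor of 2 chains. Il27ra encodes the chain specific to IL-27, and Il6st encodes gp130, which is shared with the receptors for IL-6, IL-11, leukaemia inhibitory factor and oncostatin M. Neither chain is an enzyme: Janus kinases bound to their tails, mainly JAK1 with JAK2 or TYK2, phosphorylate the receptor and then transcription factors of the STAT family. JAK3 does not serve this receptor. It is bound to the common gamma chain of the receptors for IL-2, IL-4, IL-7, IL-9, IL-15 and IL-21, and works there together with JAK1. In T cells, IL-27 is known both for driving interferon-like programmes and for inducing IL-10 and co-inhibitory receptors.

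The genes described here are Il27ra, Il6st, Jak1, Jak2, Jak3 and Tyk2, chosen by name. They are 6 of the 23366 genes of the table, and all 6 were found in it. They were read in single T cells from B16F10 tumours, a transplantable melanoma line of C57BL/6 mice, by Smart-seq2, a plate method that amplifies whole transcripts of a sorted cell. After cells with fewer than 1000 genes at 1 FPKM or more were left out, 350 cells remained. These were 89 cells from Il27ra KO mice and 85 cells from wild-type mice in the CD4 sort, and 86 cells from Il27ra KO mice and 90 cells from wild-type mice in the CD8 sort, all C57BL/6. The titles give CD4 and CD8, while the treatment text names CD8 cells for every sample. The titles were followed. They also end in p2 for every cell of the CD4 sort and in p1 for every cell of the CD8 sort. What this ending means is not given, and it cannot be told apart from the sort. Cd4 was at 1 FPKM or more in 87.6% of KO-labelled and 87.1% of WT cells of the CD4 sort. In the CD8 sort it was at that level in 0 of 86 KO-labelled cells, where a count of 0 allows up to 3.49%, and 0 of 90 WT cells, where it allows up to 3.33%. The labels do not say which exons the KO allele lacks, in which cells it is deleted, or how many animals gave each group.

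The titles give all cells of a group 1 shared tag and no other replicate, so each group was taken as 1 pool. Genotype and pool cannot be told apart, and no test between groups was made. Shares of cells are given with exact Clopper-Pearson 95% intervals, and SDs are over cells. The limit given beside a count of 0 is 3 cells of the total, and is somewhat below the upper end of the exact interval. Intervals and limits cover counting error within 1 pool only. FPKM divides fragments by transcript length and by library size, so levels of genes of different length can be compared. Markers of T cells were present in 97.6% to 100% of the cells of each group. Cells with at least 2 markers of another cell type at 10 FPKM or more numbered 10 and 9 in the KO-labelled and WT CD4 groups, and 5 and 7 in the KO-labelled and WT CD8 groups. The median number of detected genes was 1868 in KO-labelled and 1661 in WT CD4 cells, and 1955 in KO-labelled and 2148 in WT CD8 cells. No 2 cells held identical values.

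Read counts were not used here. Steps in the low values put the median library near 470000 fragments in KO-labelled CD4, 500000 in WT CD4, and 480000 in both CD8 groups. This is a rough figure, since only 28.1% to 28.9% of low values, as medians over cells, lay near such a step. With transcript lengths shuffled between genes, 14.7% to 15.6% did. At that depth 1 read is worth about 0.78 FPKM for Il27ra, whose annotated transcript has 2664 nucleotides and 14 exons. It is worth about 0.24 FPKM for Il6st, with 8678 nucleotides and 17 exons. To reach 1 FPKM, about 2 whole reads are needed for Il27ra and 5 for Il6st. For Jak3 2 whole reads are needed, and 3 for Jak1, Jak2 and Tyk2, each of 25 exons. In mm10, Il27ra lies on chromosome 8 from 84030294 to 84042589 (minus strand) and Jak3 on the same chromosome from 71676296 to 71690575 (plus strand). Il6st lies on chromosome 13 from 112464070 to 112510086 (plus), and Jak1 on chromosome 4 from 101152367 to 101265282 (minus). Jak2 lies on chromosome 19 from 29251828 to 29313080 (plus), and Tyk2 on chromosome 9 from 21104068 to 21131243 (minus). The values cover all exons of a gene together.

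Il27ra was found in close to the same share of cells in all 4 groups. It was at 1 FPKM or more in 45 of 89 KO-labelled CD4 cells (50.6%, interval 39.8% to 61.3%) and 43 of 85 WT CD4 cells (50.6%, 39.5% to 61.6%). In the CD8 sort it was found in 46 of 86 KO-labelled cells (53.5%, 42.4% to 64.3%) and 46 of 90 WT cells (51.1%, 40.3% to 61.8%). The 4 intervals overlap almost entirely. Single cells split into those at or near 0 and those with high levels. The lowest value was 0 in each group, the median cell had 1.30 FPKM in KO-labelled CD4, 7.46 in WT CD4, 2.02 in KO-labelled CD8 and 1.26 in WT CD8 cells, and the highest had 411.2, 843.9, 367.8 and 470.5 FPKM in that order. Among cells with the transcript, the median was 84.8 FPKM in KO-labelled and 90.8 in WT CD4 cells, and 90 in KO-labelled and 87.2 in WT CD8 cells. The RNA of the targeted gene was therefore as frequent in cells labelled KO as in WT cells, with a like median where present. A value summed over all exons cannot show whether a deleted part was read, so this does not check the genotype labels, and the cells are called KO-labelled throughout.

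Mean Il27ra levels differed more than the shares did, through the upper end. The mean was 47.6 ± 75.6 FPKM in KO-labelled CD4 and 83.1 ± 143.98 FPKM in WT CD4 cells (SD over cells), and the upper quartile of cells with the transcript was 130.3 FPKM in KO-labelled and 236.2 FPKM in WT CD4 cells. Among CD8 cells the mean was 58.4 ± 85.0 FPKM in KO-labelled and 51.7 ± 84.6 FPKM in WT cells. The SDs exceed the means in all 4 groups.

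**Figure D1:**
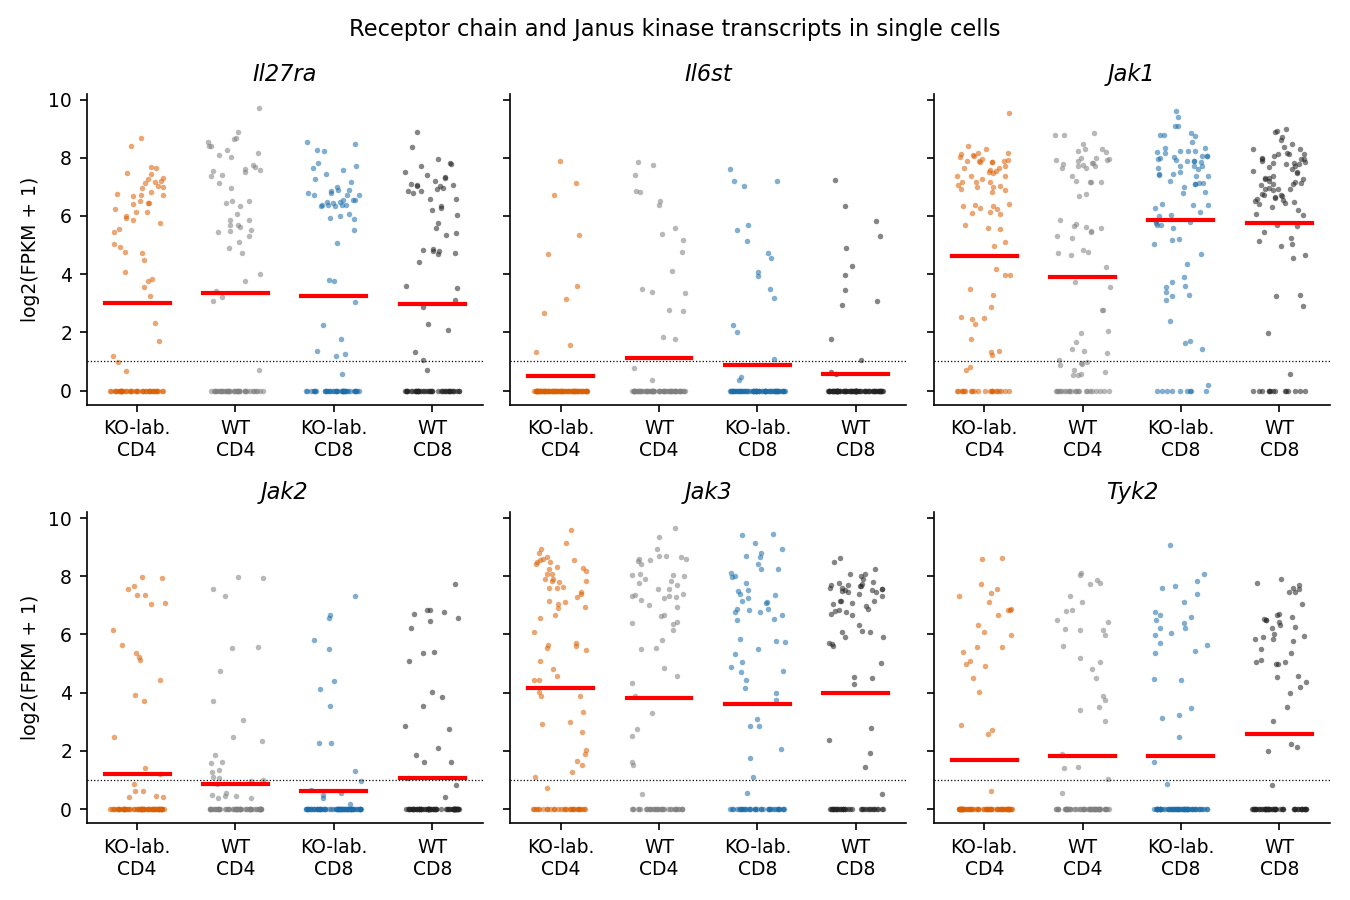
Each point is 1 cell, and the vertical axis is its log2(FPKM + 1) for the gene named above the panel. Red bars are group means and the dotted line is 1 FPKM. Il27ra and the kinases Jak1 and Jak3 split into cells at 0 and cells near 100 FPKM, while most cells lie at 0 for Il6st and Jak2.

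Il6st, the signalling chain of the receptor, was found in far fewer cells than Il27ra. It was at 1 FPKM or more in 10 KO-labelled CD4 cells (11.2%, 5.52% to 19.7%) and 19 WT CD4 cells (22.4%, 14.03% to 32.7%), and in 16 KO-labelled CD8 cells (18.6%, 11.03% to 28.4%) and 12 WT CD8 cells (13.3%, 7.08% to 22.1%). The lowest and the median cell had 0 FPKM in each group. The highest had 233.3 FPKM in KO-labelled and 230.96 FPKM in WT CD4 cells, and 195.1 FPKM in KO-labelled and 149.9 FPKM in WT CD8 cells. Its share lay below that of Il27ra with no overlap of the intervals in any group. Among cells with the transcript the median was 17.8 FPKM in KO-labelled and 34.8 in WT CD4 cells, and 23.8 in KO-labelled and 16.6 in WT CD8 cells, which also lies below Il27ra. Among all detected genes the mean of Il6st stood near the middle: 45.98% of them had a lower mean in KO-labelled CD4, 65.2% in WT CD4, 56.2% in KO-labelled CD8 and 40.7% in WT CD8 cells. For Il27ra these figures were 84.3%, 92.1%, 88.6% and 85.8%.

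Jak1, the kinase that serves both gp130 and common gamma chain receptors, was the most frequent of the 6 transcripts in every group. It was found in 66 of 89 KO-labelled CD4 cells (74.2%, 63.8% to 82.9%) and 54 of 85 WT CD4 cells (63.5%, 52.4% to 73.7%), and in 76 of 86 KO-labelled CD8 cells (88.4%, 79.7% to 94.3%) and 75 of 90 WT CD8 cells (83.3%, 74% to 90.4%). The median cell had 69.45 FPKM in KO-labelled and 17.8 FPKM in WT CD4 cells, and 131.5 FPKM in KO-labelled and 118.8 FPKM in WT CD8 cells. The lowest value was 0 in each group and the highest values were 736.6, 460.3, 783.5 and 509.9 FPKM in that order. Both CD4 groups sat below both CD8 groups, with much overlap between single cells. In WT CD4 cells 9 further cells had a value above 0 but under 1 FPKM, which makes 63 of 85.

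Jak3, the partner of the common gamma chain, followed in 59 KO-labelled and 48 WT CD4 cells (66.3% and 56.5%) and in 49 KO-labelled and 54 WT CD8 cells (56.98% and 60%). Where present it was near the level of Jak1: its medians in cells with the transcript were 137.6 FPKM in KO-labelled and 159.1 in WT CD4 cells, and 112.8 in KO-labelled and 141.3 in WT CD8 cells. The median over all cells was 20.8 FPKM in KO-labelled and 13.6 in WT CD4 cells, and 10.1 in KO-labelled and 48.7 in WT CD8 cells, against highest values of 773.6, 803.3, 707.8 and 392.8 FPKM.

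Tyk2, which serves the IL-12, type I interferon and IL-10 receptor families, was found in 25 KO-labelled and 29 WT CD4 cells (28.1% and 34.1%). In the CD8 sort it was found in 27 of 86 KO-labelled cells (31.4%, 21.8% to 42.3%) and 41 of 90 WT cells (45.6%, 35.02% to 56.4%). The median cell was at 0 in each group and the highest values were 392.1, 273.8, 540.4 and 236.4 FPKM. Cells with Tyk2 had medians of 59.02 to 74.1 FPKM.

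Jak2, which serves gp130 receptors as well as those for interferon gamma and haematopoietic growth factors, was found in 19 KO-labelled and 19 WT CD4 cells (21.3% and 22.4%). It was found in 11 KO-labelled and 21 WT CD8 cells (12.8% and 23.3%). The median cell was at 0 in every group. Where present, Jak2 had a median of 48.2 FPKM in KO-labelled and 4.52 FPKM in WT CD4 cells, each over 19 cells. The means over all cells were 19.8 ± 54.8 FPKM in KO-labelled and 11.8 ± 45.9 FPKM in WT CD4 cells, so the spread over cells exceeds the means. At 10 FPKM, 17.98% of KO-labelled and 9.41% of WT CD4 cells remained.

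**Figure D2:**
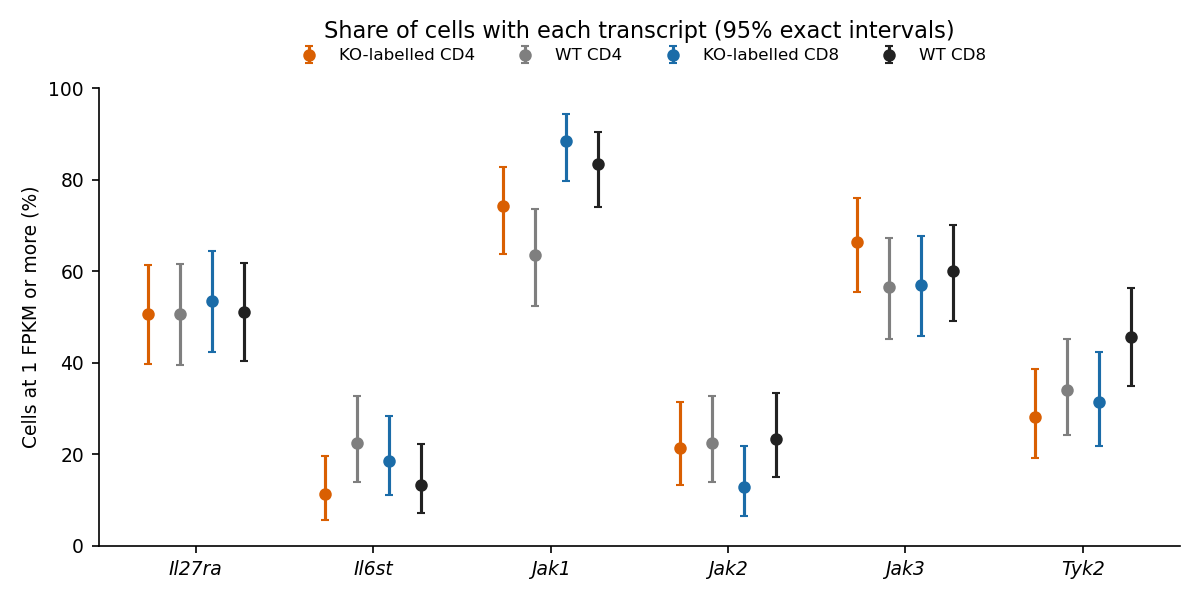
Share of cells at 1 FPKM or more for each gene, by group, with exact 95% intervals. Jak1 lies highest and Il6st and Jak2 lowest in each group, while the Il27ra shares run only from 50.6% to 53.5%.

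In each group the order of the shares was Jak1, Jak3, Il27ra and Tyk2, with Il6st and Jak2 last. Not all of these steps exceed counting error. Jak1 and Jak3 had separate intervals in both CD8 groups and overlapping ones in both CD4 groups. Jak3 and Il27ra overlapped in all 4 groups. Il27ra and Tyk2 were apart in the KO-labelled groups of both sorts and overlapped in both WT groups. Tyk2 was apart from the gene next below it in WT CD8 cells and overlapped it in the other groups, and Il6st and Jak2 overlapped in all 4.

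Most of these shares were higher in cells with more detected genes. When each group was divided into 3 equal classes by detected genes, Tyk2 was found in 14 of 29 high-class and 2 of 30 low-class KO-labelled CD4 cells, and in 20 of 30 high-class and 8 of 30 low-class WT CD8 cells. Il27ra was found in 20 and 9 cells of those classes in KO-labelled CD4 and in 20 and 11 in WT CD8 cells. KO-labelled CD8 cells were an exception for Tyk2, with 7 of 28 high-class and 8 of 29 low-class cells. KO-labelled CD4 cells were an exception for Il6st, with 2 high-class and 5 low-class cells. Detected genes are therefore given beside some of the comparisons that follow, and the group medians given above apply to the others.

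For KO-labelled against WT cells, the difference of mean log2(FPKM + 1) was used, and a gene was called past the fold at an absolute difference of 1 or more. At these settings none of the 6 genes reached it in either sort. In the CD4 sort the differences, KO-labelled minus WT, were -0.35 for Il27ra, -0.62 for Il6st, 0.75 for Jak1, 0.35 for Jak2, 0.32 for Jak3 and -0.14 for Tyk2. The median over 3864 measured genes was 0.23 and 10.9% of them were past the fold. Il6st had one of the lower values, with 3.96% of genes below it, and Jak1 one of the higher, with 82.5% below. The 95% intervals of the shares overlapped between KO-labelled and WT CD4 cells for all 6 genes, as they did for most genes: 2.46% had intervals apart.

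For the CD8 sort the differences were 0.25 for Il27ra, 0.31 for Il6st, 0.09 for Jak1, -0.46 for Jak2, -0.37 for Jak3 and -0.74 for Tyk2. Here the median over 4686 measured genes was -0.40, 13.8% were past the fold and 5.14% had intervals apart. Again none of the 6 was called. Il6st was at 1 FPKM in fewer than 20% of the cells of both CD8 groups and so was not among the measured genes. Relative to other genes, Il27ra and Jak1 stood high, with 90.8% and 83.95% of genes below them, while Jak2, Jak3 and Tyk2 lay at 46.1%, 52.2% and 25.6%.

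Some of these differences depended on the settings. Without cells with Foxp3 the Jak3 difference between KO-labelled and WT CD4 cells was 1.58, past the fold, while it was -0.02 with cells weighted to equal classes of detected genes and -0.20 in cells with at least 2000 genes. Il6st in the CD4 sort was past the fold in cells with at least 2000 genes (-1.10) and with a pseudocount of 0.1 FPKM (-1.03). Tyk2 in the CD8 sort was past it under the same settings, at -1.47 and -1.20. In the CD4 sort Tyk2 was at 0.82 without cells with Foxp3. In the CD8 sort Jak3 was at 0.27 with equal classes, and Il27ra at -0.07 in cells with at least 2000 genes. Jak1, at 0.09 there, was at -0.01 with no filter on cells and at -0.003 without cells with markers of another cell type. Il27ra, Il6st, Jak1 and Jak2 kept their sign in the CD4 sort, and Il6st, Jak2 and Tyk2 in the CD8 sort, under all 8 alternatives. Cells with Foxp3 were left out of the CD4 groups only, so that alternative could not change the values of the CD8 sort.

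**Figure D3:**
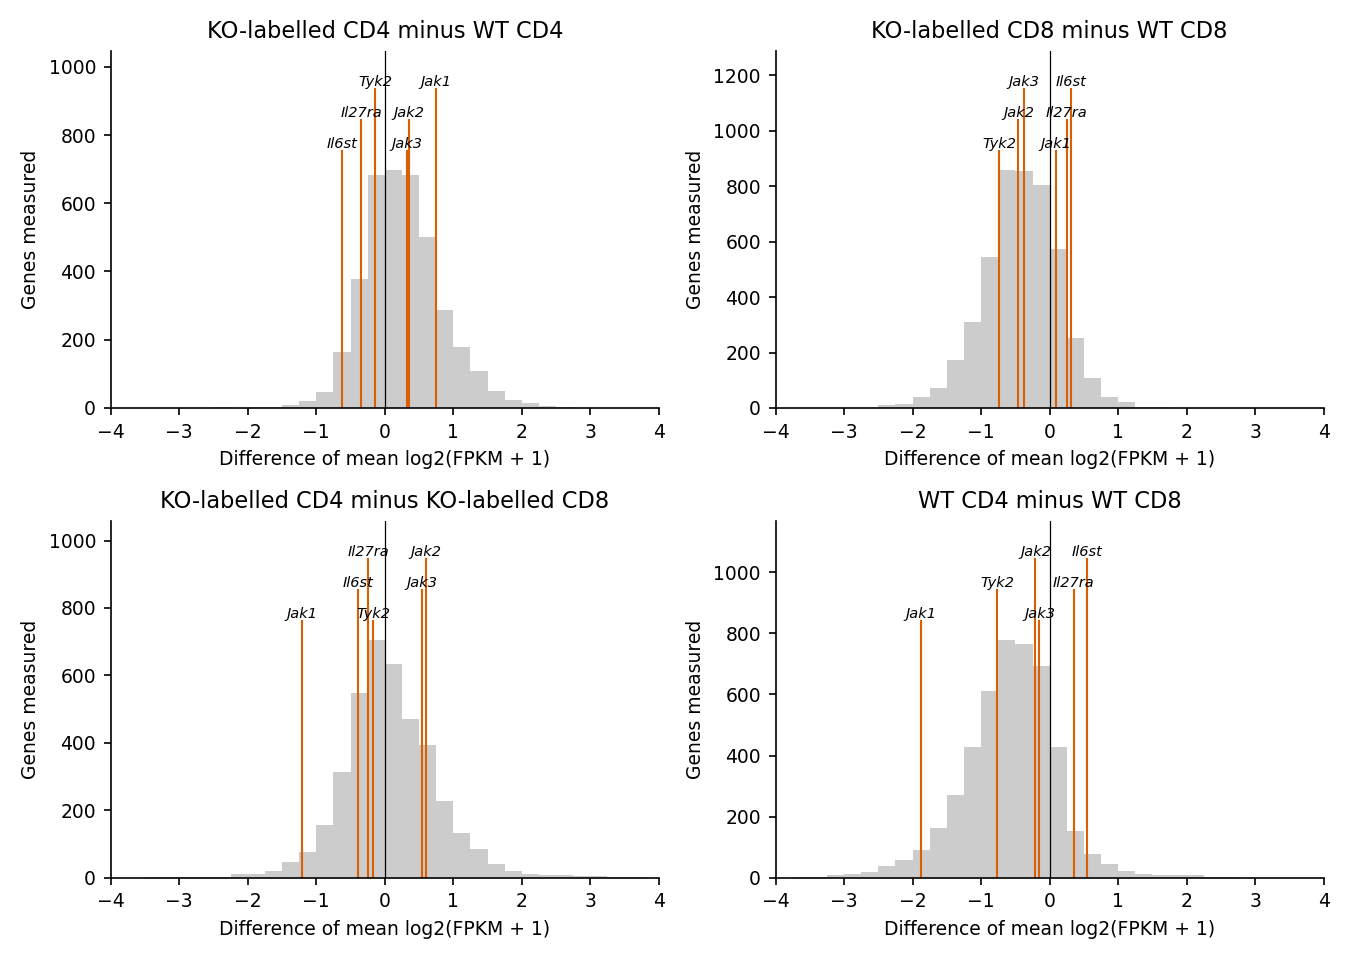
Grey bars count measured genes by their difference of mean log2(FPKM + 1) between the 2 groups named above each panel, and orange lines mark the 6 genes. Between genotypes the 6 genes lie inside 1 log2 unit; between sorts Jak1 lies at -1.21 in KO-labelled and -1.87 in WT cells.

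Between the sorts, Jak1 was the exception. Its mean log2(FPKM + 1) was 4.63 ± 3.26 in KO-labelled CD4 and 5.85 ± 2.83 in KO-labelled CD8 cells, a difference of -1.21. In WT cells it was 3.89 ± 3.36 in CD4 and 5.76 ± 2.88 in CD8, a difference of -1.87, and the intervals of the shares were apart (63.5% in WT CD4 and 83.3% in WT CD8 cells). Of all measured genes, 2.91% had a lower difference in KO-labelled cells and 3.95% in WT cells. The call is set against backgrounds of 12.8% of 3956 genes past the fold and 5.56% with intervals apart in KO-labelled cells, and 24.9% of 4729 genes past the fold and 13.2% with intervals apart in WT cells. The median over all genes was 0.03 in KO-labelled and -0.53 in WT cells, where CD4 cells had a median of 1661 and CD8 cells of 2148 detected genes; the part of detected genes in the difference was not tested, and the p2 and p1 endings of the titles run with the sorts. With cells weighted to equal classes of detected genes, the Jak1 difference was -0.91 in KO-labelled cells, short of the fold, and -1.58 in WT cells. With a pseudocount of 10 FPKM it was -0.73 in KO-labelled and -1.13 in WT cells.

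At the same settings the other 5 genes were not past the fold between the sorts. The differences, CD4 minus CD8, were -0.24 for Il27ra, -0.38 for Il6st, which was not among the measured genes, 0.60 for Jak2, 0.54 for Jak3 and -0.16 for Tyk2 in KO-labelled cells. In WT cells they were 0.35 for Il27ra, 0.55 for Il6st, -0.21 for Jak2, -0.15 for Jak3 and -0.76 for Tyk2. In WT cells Il27ra and Il6st stood high among all genes, with 94.2% and 96.2% below them. Jak3 depended on which cells entered. Without CD4 cells with Foxp3 its difference was -0.26 in KO-labelled cells and -2.21, past the fold, in WT cells. In cells with at least 2000 genes its difference was 1.04 in KO-labelled and 0.945 in WT cells. Tyk2 in cells with at least 2000 genes was at 1.23 in KO-labelled and 0.31 in WT cells. In WT cells it was past the fold without cells with Foxp3 (-1.61) and with a pseudocount of 0.1 FPKM (-1.16).

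Both receptor chains were rarely seen in 1 cell. Il27ra and Il6st were found together in 7 of 89 KO-labelled CD4 cells (7.87%, 3.22% to 15.5%) and 10 of 85 WT CD4 cells (11.8%, 5.79% to 20.6%). They were found together in 8 of 86 KO-labelled CD8 cells (9.30%, 4.10% to 17.5%) and 7 of 90 WT CD8 cells (7.78%, 3.18% to 15.4%). If the chains were drawn independently at their own shares, 5.06, 9.61, 8.56 and 6.13 cells would hold both, in the same order. Within classes of detected genes these numbers were 4.48, 9.75, 8.56 and 6.43. In each group the expected share lay inside the interval of the observed one. Il6st was thus found in 15.6% of KO-labelled CD4 cells with Il27ra and 6.82% of those without it. The shares with and without Il27ra were 23.3% and 21.4% in WT CD4, 17.4% and 20% in KO-labelled CD8, and 15.2% and 11.4% in WT CD8 cells. Most cells with Il27ra RNA therefore had no Il6st RNA at 1 FPKM.

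A small number of cells held transcripts of a full receptor with its kinases. Il27ra, Il6st and Jak1 with at least 1 of Jak2 and Tyk2 were found together in 2 KO-labelled and 7 WT CD4 cells (2.25%, 0.273% to 7.88%, and 8.24%, 3.38% to 16.2%), and in 2 KO-labelled and 2 WT CD8 cells. Il27ra with Jak1 was common, in 35 KO-labelled and 33 WT CD4 cells and in 43 KO-labelled and 40 WT CD8 cells. All 4 kinases were found in 3 KO-labelled and 4 WT CD4 cells, and in 2 KO-labelled CD8 cells (2.33%, 0.283% to 8.15%) and 12 WT CD8 cells (13.3%, 7.08% to 22.1%), with intervals that overlap. No kinase was found in 6, 6, 2 and 6 cells in the same order, and none of the 6 genes in 5, 3, 2 and 4 cells. These counts are of RNA at 1 FPKM, and a transcript missed by capture counts as absent.

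Among the pairs of genes, Jak1 was found in 33 of 43 WT CD4 cells with Il27ra (76.7%, 61.4% to 88.2%), and in 50% of those without it. Averaged over classes of detected genes the difference was 23.4 percentage points, above 97.1% of genes, but it was 3.02 points in KO-labelled CD4, 8.39 in KO-labelled CD8 and 3.66 in WT CD8 cells. Jak3 went with Il27ra in the CD8 sort, by 16.4 points in KO-labelled and 19.1 points in WT cells. In the CD4 sort the difference was -11.0 points in KO-labelled and -4.54 points in WT cells, a sign that rests on the classes. Without classes Jak3 was found in 66.7% of KO-labelled CD4 cells with and 65.9% without Il27ra, a difference of 0.76 points, and in 58.1% and 54.8% of WT CD4 cells, 3.38 points. Without cells with Foxp3 the WT value was 5.40 points. In WT CD8 cells, all 21 cells with Jak2 also had Jak1, and 18 of them had Jak3. Within classes, 18.7 and 14 such cells would be expected if the genes were independent. Jak3 was found in 72.7% of KO-labelled CD8 cells with and 54.7% without Jak2. In CD4 cells it was less frequent with Jak2, at 52.6% and 70% in KO-labelled and 47.4% and 59.1% in WT cells. Jak1 was found in 63.2% of KO-labelled CD4 cells with and 77.1% without Jak2, 73.7% and 60.6% in WT CD4, and 90.9% and 88% in KO-labelled CD8 cells.

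Cells with Il27ra were compared with those without it over all genes. They had more detected genes: a median of 2050 with and 1709 without Il27ra in KO-labelled CD4, 1761 and 1470.5 in WT CD4, 1972 and 1899.5 in KO-labelled CD8, and 2335.5 and 2039 in WT CD8 cells. Shares of cells were therefore compared within 3 classes of detected genes and averaged. Of 3505 genes measured this way, 469 (13.4%) were more frequent with Il27ra in all 4 groups and 71 (2.03%) less frequent in all 4. Taken singly, 60.5% of genes were more frequent with it in KO-labelled CD4 and 64.9% in WT CD4 cells. In the CD8 sort 49.9% were in KO-labelled and 67.96% in WT cells. Such leans alone put some genes on the same side in all 4 groups, so the counts do not show a shared set of genes. Classes did not remove the imbalance: within them, cells with Il27ra had on average 183.5 more genes in KO-labelled CD4, 292.7 more in WT CD4 and 284.6 more in WT CD8 cells, though not in KO-labelled CD8 cells (-38.7). The part of detected genes in these shares was not tested.

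At these settings the gene that went with Il27ra most evenly was Ss18, a subunit of the BAF chromatin remodelling complex. The measure is the smallest of the 4 differences, which for Ss18 was 16.2 points. It was found in 53.3% of KO-labelled CD4 cells with and 31.8% without Il27ra, 44.2% and 21.4% in WT CD4, 52.2% and 35% in KO-labelled CD8, and 60.9% and 40.9% in WT CD8 cells. Psme2, which encodes a subunit of the PA28 proteasome activator and is induced by interferon, came next at 15.5 points. It was found in 77.8% of KO-labelled CD4 cells with and 45.5% without Il27ra, 76.7% and 38.1% in WT CD4, 71.7% and 55% in KO-labelled CD8, and 93.5% and 65.9% in WT CD8 cells. Nisch (13.1 points), Sec11c of the signal peptidase (12.7), the noncoding host gene Snhg8 (11.7) and Traf3ip3, an adaptor of lymphocytes (11.7), followed. Srpr of the signal recognition particle receptor, the transcription factor Sp3 and Rpl36al, a ribosomal protein gene, had 10.04 to 10.6 points. Sec11c and Srpr both serve entry of proteins into the secretory pathway, but they were picked from a ranking of these same cells, and a shared function was not tested. In cells with at least 2000 genes the difference was -4.76 points for Ss18 in WT CD4 and -2.32 points for Nisch in KO-labelled CD4 cells. Psme2 was more frequent with Il27ra in all 4 groups under each of the 7 alternatives run. These runs reuse the cells from which Psme2 was picked, so they are no independent support. Leaving out cells with Foxp3 could not change the CD8 groups.

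Genes less frequent with Il27ra in all 4 groups had smaller differences. The measure is now the difference closest to 0, which was -8.36 points for Gpr157, an orphan receptor, -8.16 for Yipf3, -7.13 for Foxr1 and -5.42 for the histone variant gene H2afy. It was -5.21 for Dcdc2c, -4.63 for Elmo1, a regulator of Rac, -4.53 for the pentose phosphate enzyme gene Tkt, -4.45 for the kinase gene Gak, -4.40 for Polr3gl and -4.09 for Abcd4. Without classes, the shares of several of these did not differ in the same direction. Yipf3 was found in 50% of WT CD8 cells both with and without Il27ra, and Tkt in 51.1% of KO-labelled CD4 cells with and 45.5% without it.

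Gene lists of T cell states did not follow Il27ra in 1 direction across groups. Of 9 measured genes of naive and memory cells, none was more frequent with Il27ra in all 4 groups and none less frequent in all 4. Of 6 measured effector genes 2 were more frequent in all 4, and of 13 interferon-stimulated genes 2, where 13.4% of all 3505 genes were. The median for interferon-stimulated genes was -1.02 points in KO-labelled CD4 and -1.33 points in KO-labelled CD8 cells, with 6 of 13 above 0 in each. It was 7.42 points in WT CD4 and 11.3 points in WT CD8 cells, with 12 of 13 above 0 in each. The medians over all genes were 2.57, -0.06, 3.85 and 4.37 points in the same order of groups. Of all genes, 60.5%, 49.9%, 64.9% and 67.96% were above 0 in that order. The difference between genotypes was not tested. Cells with at least 2 of the inhibitory receptors Pdcd1, Havcr2, Lag3 and Tigit made up 55.6% of KO-labelled CD4 cells with and 31.8% without Il27ra, and 67.4% and 35.7% of WT CD4 cells. In the CD8 sort they made up 30.4% with and 22.5% without it in KO-labelled cells, and 47.8% and 38.6% in WT cells. The intervals overlap in each group. These shares are not averaged over classes of detected genes, and cells with Il27ra had more detected genes. Averaged over classes, the median difference over the 4 measured genes of a list of 10 inhibitory receptors was 1.61 points in KO-labelled and 19.4 points in WT CD4 cells, and -6.04 points in KO-labelled and 0.49 points in WT CD8 cells, beside all-gene medians of 2.57, 3.85, -0.06 and 4.37 points.

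Cells with Il6st showed a different pattern, which was looked for after its values were seen and rests on 10 to 19 cells a group. Here 9.36% of 3506 genes were more frequent in all 4 groups and 5.45% less frequent in all 4. Taken singly, 58.4% of genes were more frequent with Il6st in KO-labelled CD4 and 48.3% in WT CD4 cells. In the CD8 sort 57.4% were in KO-labelled and 53.99% in WT cells. Of the 9 measured naive and memory genes, 8 were more frequent with Il6st in all 4 groups, and the exception was Ltb. Lef1, a transcription factor of naive and memory cells, was found in 80% of KO-labelled CD4 cells with and 34.2% without Il6st, 52.6% and 30.3% in WT CD4, 68.8% and 41.4% in KO-labelled CD8, and 58.3% and 39.7% in WT CD8 cells. Ccr7, the chemokine receptor of lymph node homing, was found in 50% and 15.2%, 26.3% and 21.2%, 81.2% and 32.9%, and 75% and 38.5% in the same groups. Il4ra, a common gamma chain partner, also stood high, with a smallest difference of 19.6 points.

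Cxcr6, a chemokine receptor of tissue T cells, stood furthest in the other direction. It was found in 10% of KO-labelled CD4 cells with and 41.8% without Il6st, 5.26% and 27.3% in WT CD4, 12.5% and 51.4% in KO-labelled CD8, and 33.3% and 51.3% in WT CD8 cells. Bhlhe40, a transcription factor of activated T cells, and the chemokine gene Ccl5 were less frequent in all 4 groups as well, with differences closest to 0 of -10.07 and -10.05 points. The direction of the naive genes depended on what counts as detected: with 10 FPKM as the level, 1 of the 9 was more frequent with Il6st in all 4 groups, and with only cells of at least 2000 genes, 2 were. Lef1 at 10 FPKM was less frequent with Il6st in KO-labelled CD4 (-5.52 points) and WT CD8 cells (-12.3 points). Ccl5 was more frequent with Il6st in KO-labelled CD4 cells at 10 FPKM (16.8 points), and in cells with at least 2000 genes in KO-labelled CD4 (25.5 points) and WT CD8 cells (7.40 points). Cxcr6 kept its sign in all 4 groups under each of the 7 alternatives run. It was picked from the same cells, so this is no independent support.

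**Figure D4:**
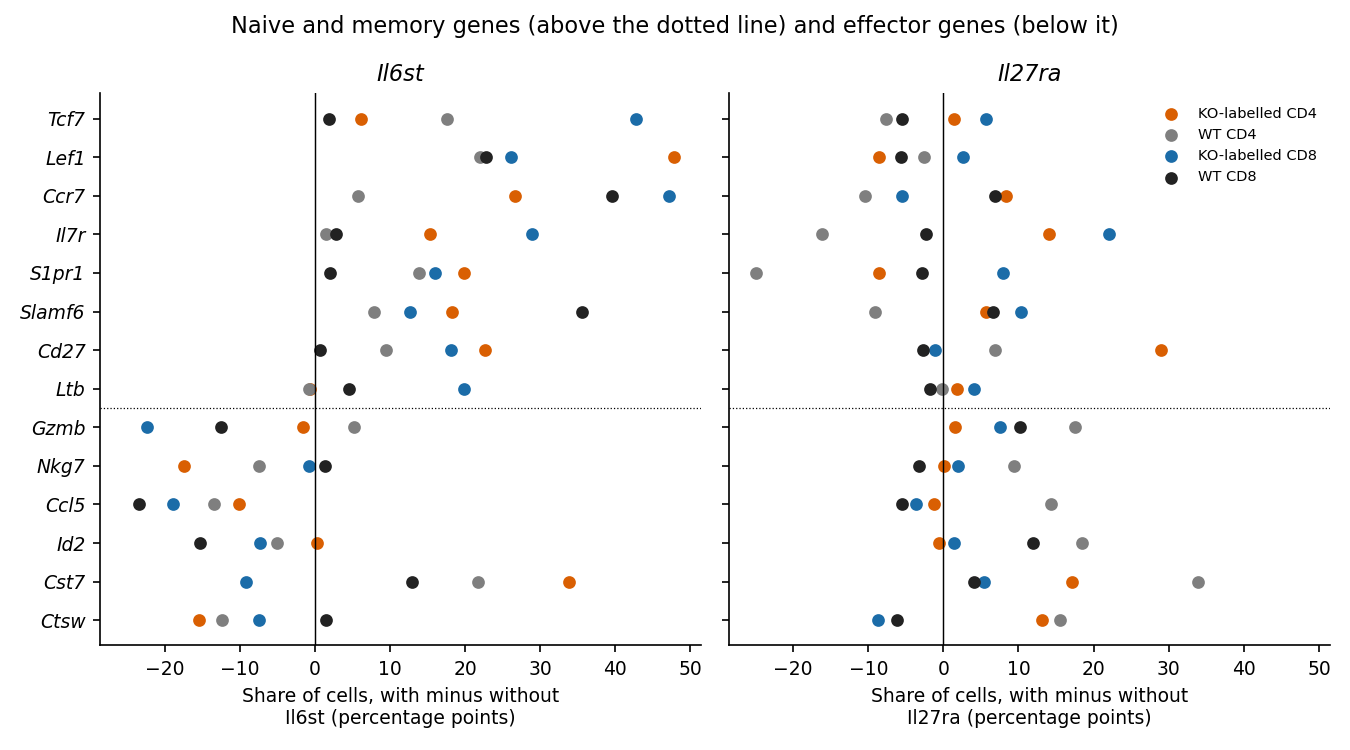
Each point is the share of cells with the gene on the vertical axis among cells with minus cells without Il6st (left) or Il27ra (right), averaged over 3 classes of detected genes, in percentage points, for 1 group. Of the 8 naive and memory genes drawn, 7 lie right of 0 in all 4 groups for Il6st and none for Il27ra.

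The CD4 sort holds both regulatory and other T cells, and the receptor and kinase genes were set against Foxp3, the transcription factor that defines regulatory T cells. Foxp3 was found in 35 of 89 KO-labelled and 46 of 85 WT CD4 cells. In WT cells, Jak3 was found in 36 of 46 cells with Foxp3 (78.3%, 63.6% to 89.1%) and 12 of 39 without it (30.8%, 17.02% to 47.6%), and these intervals are apart, as for 5.95% of 3849 genes. The mean Jak3 level was 176.6 FPKM with and 34.4 FPKM without Foxp3. In KO-labelled cells Jak3 was found in 28 of 35 cells with Foxp3 (80%, 63.1% to 91.6%) and 31 of 54 without it (57.4%, 43.2% to 70.8%), which overlap, while 6.87% of 4848 genes were apart. The share in cells with Foxp3 was thus close to the same in both genotypes. Cells with Foxp3 had more detected genes, a median of 2152 against 1746.5 in KO-labelled and 1883.5 against 1547 in WT cells. Within classes of detected genes the Jak3 difference was 40.6 points in WT cells, above 99.4% of genes, and 10.8 points in KO-labelled cells, above 72.05%. At 10 FPKM Jak3 was found in 73.9% with and 23.1% without Foxp3 in WT cells.

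Il27ra was found in 62.9% of KO-labelled CD4 cells with and 42.6% without Foxp3, and in 54.3% and 46.2% of WT CD4 cells, with overlapping intervals. Within classes the difference was 11.8 points in KO-labelled and 9.58 in WT cells. Jak1, the partner of Jak3, was found in 77.1% and 72.2% of KO-labelled and in 60.9% and 66.7% of WT CD4 cells with and without Foxp3, so it did not share the pattern of Jak3 in WT cells.

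A split of the CD8 sort by Tcf7, a transcription factor of naive, memory and stem-like T cells, was chosen after the values were seen. In KO-labelled cells Il6st was found in 16 of 56 cells with Tcf7 (28.6%, 17.3% to 42.2%) and 0 of 30 without it, which allows a share of up to 10% by 3 cells of the total and 11.6% by the exact interval. The intervals are apart, as for 0.732% of 4097 genes. In WT CD8 cells Il6st was found in 6 of 47 cells with and 6 of 43 without Tcf7 (12.8% and 13.95%), so the pattern was seen in 1 of the 2 CD8 groups. Jak2 was found in 3 of 56 KO-labelled CD8 cells with Tcf7 (5.36%, 1.119% to 14.9%) and 8 of 30 without it (26.7%, 12.3% to 45.9%), against 23.4% and 23.3% in WT cells. In WT CD8 cells Jak3 was found in 46.8% with and 74.4% without Tcf7, and Tyk2 in 34.04% and 58.1%. The intervals of both overlap, 8.19% of 5665 genes were apart, and the median of detected genes was 2053 with and 2763 without Tcf7.

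**Figure D5:**
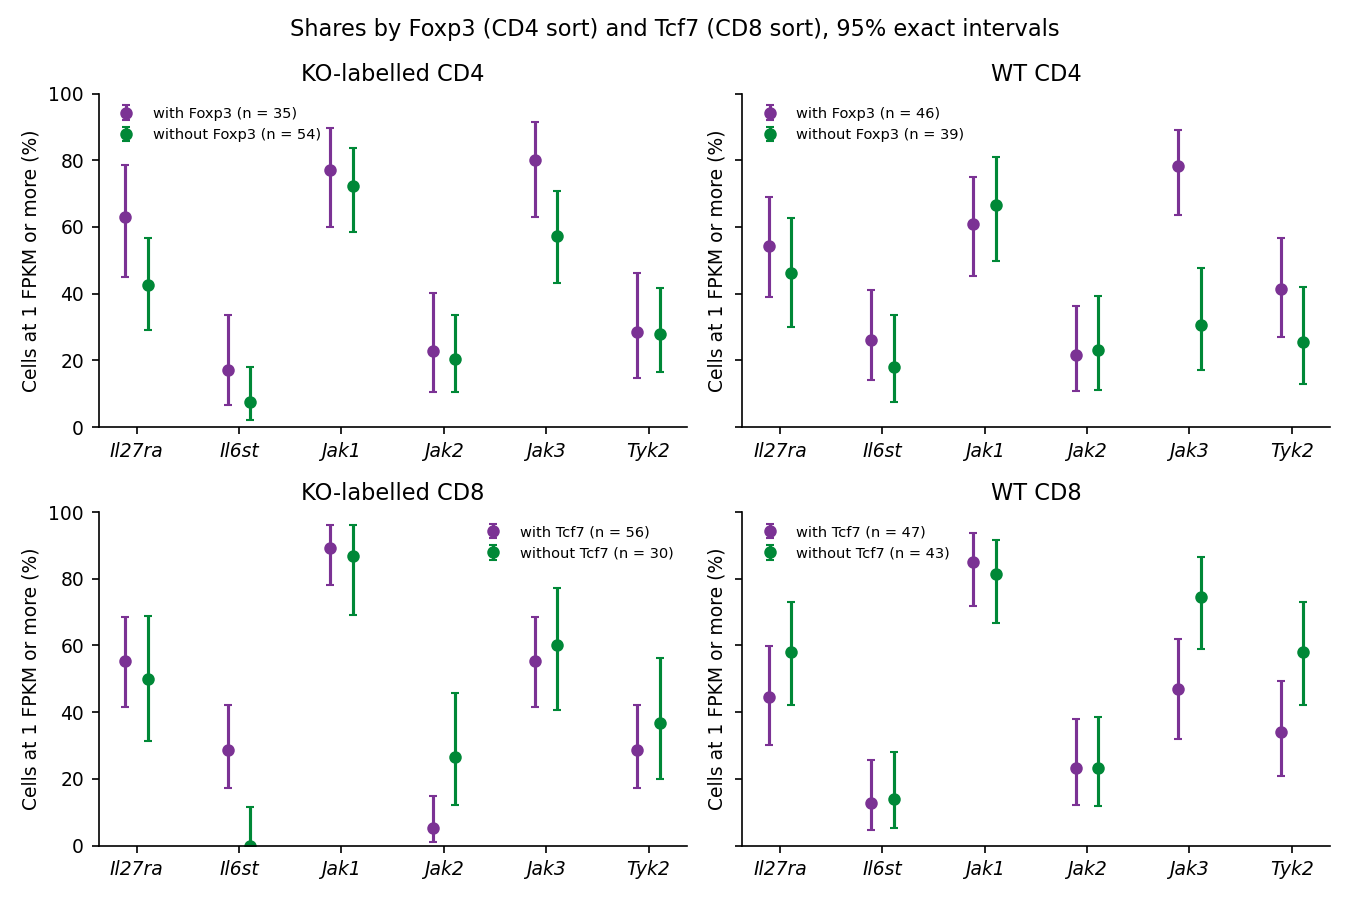
Share of cells at 1 FPKM or more for each gene, among cells with and without Foxp3 in the CD4 sort and with and without Tcf7 in the CD8 sort, with exact 95% intervals. Jak3 differs most by Foxp3 in WT CD4 cells (78.3% and 30.8%), and Il6st by Tcf7 in KO-labelled CD8 cells (28.6% and 0 of 30).

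Around the receptor, Il27 itself was at 1 FPKM in none of the cells of any group, which allows shares of up to 3.37% in KO-labelled and 3.53% in WT CD4, and 3.49% in KO-labelled and 3.33% in WT CD8 cells. Ebi3 was found in 16.9% of KO-labelled CD4 cells and 0 of 86 KO-labelled CD8 cells, and in 18.8% of WT CD4 and 1.11% of WT CD8 cells. Of 9 receptor genes of the gp130 and IL-12 families, 2 were measured in KO-labelled against WT CD4 cells and 3 in the CD8 sort, and none was past the fold.

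The counts of the gene lists that follow stand beside a background that leans 1 way in each sort: of all measured genes, 66.1% had a higher mean in KO-labelled than in WT CD4 cells, and 21.3% in KO-labelled than in WT CD8 cells. Of the 7 STAT genes, which encode the substrates of the kinases, all were measured between genotypes in both sorts, and 6 had a lower mean in KO-labelled cells in each, which in CD8 cells is near the background. Stat3 differed by -1.52 in CD8 cells, beside an all-gene median of -0.40, and was found in 62.8% of KO-labelled (51.7% to 72.98%) and 73.3% of WT CD8 cells (62.97% to 82.1%), which overlap. Between sorts, Stat4, which serves the IL-12 receptor, differed by -1.85 in KO-labelled and -2.33 in WT cells, CD4 minus CD8. In KO-labelled cells 51.8% of all measured genes were higher in CD4 than in CD8, the median was 0.03 and 12.8% were past the fold. In WT cells 16.5% were higher in CD4, the median was -0.53 and 24.9% were past the fold.

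Among 18 inhibitors of the kinases and their receptors, 8 were measured between genotypes in each sort. In CD4 cells 5 were higher and 3 lower in KO-labelled cells, near the background. Socs3, which binds gp130 and blocks JAK1, JAK2 and TYK2, was found in 29.2% of KO-labelled (20.1% to 39.8%) and 63.5% of WT CD4 cells (52.4% to 73.7%), a difference of -3.07. It was found in 53.5% of KO-labelled and 60% of WT CD8 cells, a difference of -0.28. Socs2 was found in 26.97% of KO-labelled and 8.24% of WT CD4 cells, a difference of 1.51. In CD8 cells 7 of 8 were lower in KO-labelled cells, also near the background, with the phosphatase genes Ptpn1 at -1.13 and Ptpn6 at -1.07. Cish, an inhibitor induced by STAT5, was higher in CD4 than in CD8 cells, by 2.76 in KO-labelled and 1.95 in WT cells. In KO-labelled cells Socs3 differed by -2.24 and Socs2 by 1.82 between CD4 and CD8, beside an all-gene median of 0.03. In WT cells Ptpn6 differed by -2.57, beside an all-gene median of -0.53 and 24.9% of genes past the fold.

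Of 8 common gamma chain receptor genes, which signal through Jak1 and Jak3, 6 were measured in the CD4 sort and all 6 were lower in KO-labelled cells, none past the fold, where 66.1% of all genes were higher. In the CD8 sort 5 were measured, with Il7r at 1.07 and Il21r at -1.38. Il2ra, the IL-2 receptor alpha chain of regulatory and activated cells, was found in 39.3% of KO-labelled CD4 and 6.98% of KO-labelled CD8 cells, and in 47.1% of WT CD4 and 13.3% of WT CD8 cells. Of 6 interferon and IL-10 receptor genes, all measured, 5 were higher in KO-labelled than in WT CD4 cells, none past the fold, where 66.1% of all genes were higher. In CD8 cells 4 were higher, where 21.3% of all genes were, and Il10ra differed by -1.15. Of 20 genes linked to IL-27, 15 were measured in CD4 cells and 12 of them were lower in KO-labelled cells, where 66.1% of all genes were higher, with Lag3 at -1.37 and Ikzf3, a lymphoid transcription factor, at 1.20. In CD8 cells 13 were measured and 12 were lower, where 21.3% of all genes were higher. The inhibitory receptor genes Lag3 and Havcr2 differed by -1.79 and -1.60 there. This list, like the others, was chosen with earlier results of these data known, so its counts are no independent support. Between sorts Maf, a transcription factor that drives IL-10, was found in 33.7% of KO-labelled CD4 and 4.65% of KO-labelled CD8 cells, and in 37.6% of WT CD4 and 2.22% of WT CD8 cells.

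Set against the all-gene medians of 0.23 in CD4 and -0.40 in CD8 cells, the KO-labelled minus WT medians of the STAT genes were -0.18 in CD4 and -0.55 in CD8 cells, and those of the inhibitors 0.16 in CD4 and -0.41 in CD8 cells. They were -0.34 in CD4 and -0.46 in CD8 cells for common gamma chain receptors, 0.33 and 0.25 for interferon and IL-10 receptors, and -0.54 and -0.91 for genes linked to IL-27. Each of these medians kept its sign when every cell was rescaled to the same FPKM sum. Relative to the all-gene median, common gamma chain receptors in CD8 cells changed sides, to -0.31 against -0.33. The other medians stayed on the same side. That of interferon and IL-10 receptors in CD4 cells was then 0.20 against 0.16.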

How the data were processed

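Gene-level FPKM from single T cells were used as the authors deposited them, made with Bowtie and RSEM on mm10 per the submitters' processing notes, and TMM-normalized per the labels' descriptions. Tool versions are not given in the sources used here. The table held 23366 genes, of which 4 rows with repeated symbols were left out. It also held 4 columns of no listed sample, which were not used. TMM scaling sets each cell by the bulk of its genes, so levels are relative to the other genes of that cell.

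From these values, detection was set at 1 FPKM, and a cell was kept with at least 1000 detected genes. Levels are means of log2(FPKM + 1), a scale that understates differences of low genes. A gene was measured in a comparison if detected in at least 20% of cells in either group. For what Il27ra goes with, a gene had to be in 20% to 95% of all cells and at least 10% of each group. No test was made, as each group is 1 pool. No doublet caller was run. Transcript lengths and positions come from GENCODE vM21. Scripts used Python 3.11.15, numpy 2.4.6, pandas 2.3.3, scipy 1.17.1 and matplotlib 3.10.9, and were tested on simulated data.

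Named genes are the 6 genes, list members past the fold or with intervals apart (at most 4 a list, by size), and the 10 most and 10 least frequent with Il27ra in all 4 groups. A few genes that this rule names are not reported here. The genes and lists were chosen with earlier results of these data known. Genes named for Il6st and the Tcf7 split fall outside that rule and were chosen after their values were seen. Alternatives varied the detection level, cell and gene filters, pseudocount, scaling, weighting by detected genes, and cells left out. Cells with Foxp3 were left out of the CD4 groups only, so the 4 of 86 KO-labelled CD8 cells with Foxp3 stayed in.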

Additional observations from a re-analysis of the deposited data

Results flagged for a closer look

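For 4 of the 6 genes the difference between KO-labelled and WT cells had opposite signs in the CD4 and CD8 sorts. With 1 pool a group this was not tested, and 59.5% of 3621 genes measured in both sorts did the same. KO-labelled minus WT, the difference of mean log2(FPKM + 1) was -0.35 in CD4 and 0.25 in CD8 cells for Il27ra, and -0.62 in CD4 and 0.31 in CD8 cells for Il6st. It was 0.35 in CD4 and -0.46 in CD8 cells for Jak2, and 0.32 in CD4 and -0.37 in CD8 cells for Jak3. The all-gene medians were 0.23 in CD4 and -0.40 in CD8 cells. Leaving out cells with Foxp3 could not change the CD8 values. Under the 8 alternatives run, the signs for Il6st and Jak2 held in both sorts. That of Jak3 turned in CD4 cells (to -0.02 with equal classes of detected genes and -0.20 in cells with at least 2000 genes) and in CD8 cells (to 0.27 with equal classes). That of Il27ra turned in CD8 cells with at least 2000 genes (-0.07).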

How the results depend on the processing

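The differences of mean log2(FPKM + 1) of 3 of the 5 other genes passed the fold under some of the 8 alternatives. In cells with at least 2000 genes, Il6st was at -1.096 for KO-labelled against WT CD4 cells, Tyk2 at -1.466 for KO-labelled against WT CD8 cells, and, for CD4 against CD8 in KO-labelled cells, Jak3 at 1.037 and Tyk2 at 1.227, the last with its sign turned. With a pseudocount of 0.1 FPKM, Il6st was at -1.035 and Tyk2 at -1.203 in the first 2 of these comparisons, and Tyk2 at -1.162 for CD4 against CD8 in WT cells. Without cells with Foxp3, Jak3 was at 1.58 for KO-labelled against WT CD4 cells, and in WT cells Jak3 was at -2.209 and Tyk2 at -1.61 for CD4 against CD8. The Jak1 call between sorts was lost in KO-labelled cells with a pseudocount of 10 FPKM (-0.73) and with equal classes of detected genes (-0.91). Over all 8 alternatives it kept its sign and ranged from -1.66 to -0.73 in KO-labelled and from -2.37 to -1.13 in WT cells. Of the recomputed shares of cells with 1 of the 6 genes, 18 lay outside the interval of the reported share. No paired analysis was possible because each group is 1 pool and no test was made. With 1 pool a group, no alternative bears on the spread between animals, and the causes of the changes below were not tested.

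With any value above 0 as detected, Jak1 was found in 74.12% of WT CD4 cells. With 10 FPKM as the level, Jak1 was found in 62.92% of KO-labelled CD4 and 79.07% of KO-labelled CD8 cells, Jak2 in 9.412% of WT CD4 and Jak3 in 55.06% of KO-labelled CD4 cells. Il27ra with Il6st was then found in 3.488% of KO-labelled CD8 cells and expected in 3.106% of KO-labelled CD4 cells. In cells with at least 2000 genes, Il27ra was found in 70.27% of KO-labelled and 64% of WT CD4 cells. Jak1 was found there in 86.49% of KO-labelled and 76% of WT CD4 cells and in 97.37% of KO-labelled CD8 cells, and Jak2 in 33.9% of WT CD8 cells. Jak3 was found there in 89.19% of KO-labelled and 76% of WT CD4 cells and in 73.68% of KO-labelled and 71.19% of WT CD8 cells, and Tyk2 in 48.65% of KO-labelled and 60% of WT CD4 cells. Without cells with Foxp3, Jak3 was found in 30.77% of WT CD4 cells, and Il27ra with Il6st was expected in 3.155% of KO-labelled CD4 cells.

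The percent of all genes past the fold depended on the settings. For KO-labelled against WT CD4 cells it was 23.1% with a pseudocount of 0.1, 2.33% with one of 10, 6.78% with equal classes of detected genes, and 36.8% at a difference of 0.5. It was 18.5% in cells with at least 2000 genes, 16.7% without cells with Foxp3, 6.41% with genes in at least 10% of cells and 1.82% with no filter on genes. For KO-labelled against WT CD8 cells it was 32.6%, 1.81%, 6.42% and 47% under the first 4 of these, 20.4% in cells with at least 2000 genes, 8.85% with genes in 10% of cells and 2.83% with no gene filter. For KO-labelled CD4 against CD8 cells it was 25.9% and 3.67% with pseudocounts of 0.1 and 10, 40.4% at a difference of 0.5, 27.9% in cells with at least 2000 genes, 7.78% with genes in 10% of cells and 2.26% with no gene filter. For WT CD4 against CD8 cells it was 46.1% and 6.7% with those pseudocounts, 12.4% with equal classes, 56.9% at a difference of 0.5, 15.9% with genes in 10% of cells and 5.13% with no gene filter.

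The percent of genes with intervals apart, in cells with at least 2000 genes, was 0.384% for KO-labelled against WT CD4 and 2.02% for KO-labelled against WT CD8 cells. It was 3.37% for CD4 against CD8 in KO-labelled and 2.06% in WT cells. Without CD4 cells with Foxp3 it was 0.992% for KO-labelled against WT CD4 cells and 2.94% for KO-labelled CD4 against CD8 cells. With no gene filter it was 0.462%, 1.25%, 1.15% and 2.93% in the order of those 4 comparisons, and with genes in 10% of cells 1.6% for KO-labelled against WT CD4 cells.

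The percent of genes more frequent with Il27ra in all 4 groups was 29.5% without classes of detected genes. It was 7.13% in cells with at least 2000 genes and 7.77% without CD4 cells with Foxp3. The percent less frequent was 0.571%, 5.14% and 3.69% under these, 2.77% with any value above 0 and 1.17% with no filter on cells. For Il6st, with alternatives added after the data were seen, 6.78% were more frequent at 10 FPKM. In cells with at least 2000 genes 4.79% were more and 6.69% less frequent with Il6st. Of the 9 naive and memory genes, 1 was more frequent with Il6st in all 4 groups at 10 FPKM and 2 in cells with at least 2000 genes.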
